A study of Mus musculus with 2 samples.

Results

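The genes of sterol and fatty acid synthesis were compared between OCCM-30 cells that were compressed and OCCM-30 cells kept as controls, by RNA sequencing of 1 library in each group. The set holds 34 genes of the 44792 rows in the count table. They were taken by name from a list, and each of the 34 had a row, with Msmo1 listed under its older symbol Sc4mol. They fall into 18 enzymes of the sterol branch, 9 enzymes of the fatty acid branch, 5 regulators of the SREBP pathway and 2 sterol carriers. OCCM-30 is an immortalized line with cementoblast-like properties, derived from mouse cementum and labelled wild type. Both groups were grown in serum-containing medium, and neither the load nor how long it lasted is stated in the labels. With 1 library a side, no difference has a replicate check and no p-value was computed. Ratios are given as compressed over control, scaled to library size, and the 95% interval beside each covers counting error only, not the spread between cultures.

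Cells build cholesterol from acetyl-CoA through mevalonate, farnesyl diphosphate, squalene and lanosterol, and build fatty acids from the same acetyl-CoA by carboxylation, chain assembly, elongation and desaturation. Both branches are under the control of the SREBP transcription factors, which are made as membrane precursors in the endoplasmic reticulum. The escort protein SCAP carries them to the Golgi for cleavage when sterols are scarce, and INSIG proteins hold SCAP back when sterols are plentiful. SREBP1c is best known for driving fatty acid genes and SREBP2 for driving sterol genes, with NF-Y, which binds CCAAT boxes, as a frequent partner. Liver X receptors respond to oxysterols and induce cholesterol export through ABCA1.

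The libraries held 24296292 counts for the compressed and 25049919 counts for the control cells. Of 11 cementoblast and osteoblast markers, 7 reached a minimum of 1 CPM in either library (1 CPM is 1 count in 1000000). The list summed to 13100 CPM in compressed and 12780 CPM in control cells. Most of that sum was collagen: Col1a1 had 7758 CPM in compressed and 7535 in control cells, and Col1a2 had 4916 and 4789. Sp7 had only 4.08 CPM in compressed and 3.91 CPM in control cells. Ibsp had 0 counts in both libraries, for which a limit of 3 counts corresponds to 0.124 CPM for compressed and 0.12 CPM for control cells. Bglap, Dlx5 and Dmp1 were below the minimum, and Runx2, the osteoblast master regulator, had 4416 counts in compressed and 5788 in control cells, a ratio of 0.787. Of 9 adipocyte markers only Cebpa lay above it, with 80 counts in compressed and 97 in control cells, while Cidec, Lep and Cfd were at 0 in both. The 6 hepatocyte markers were all below the minimum, and 3 of 7 macrophage markers lay above it, with a summed 18.04 CPM in compressed and 18.7 CPM in control cells for that list. In bulk RNA, fewer cells expressing a gene and less RNA per cell cannot be told apart.

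Most of the 34 genes were less than 25% higher or less than 20% lower in compressed cells. None reached a 2-fold difference, against 3.06% of the 14001 genes above the CPM minimum that were at least 2-fold higher and 0.929% that were at least 2-fold lower. At a smaller limit, 6 genes were at least 25% higher with an interval that excluded 1, namely Stard4, Pmvk, Scd2, Abca1, Tm7sf2 and Insig1. Another 3 genes were at least 20% lower by the same rule, namely Hsd17b7, Elovl6 and Fasn. These 6 and 3 genes are 17.6% and 8.82% of the 34, and over all genes above the minimum the shares were 14.3% higher and 11.4% lower by that rule. With a minimum of 5 CPM, which 33 of the 34 genes passed, the same 6 and 3 genes stood against 13.2% higher and 11.4% lower of all 11008 genes. Both shares of the set thus lay near those of the whole transcriptome.

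Counting smaller differences too, the interval lay wholly above 1 for 18 genes, wholly below 1 for 8 and included 1 for the other 8. Over all genes above the CPM minimum it lay above 1 for 26.3% and below 1 for 28.6%, and with a minimum of 5 CPM for 28.5% and 33.4%. The set's shares were 52.9% above and 23.5% below. The width of these intervals follows the number of counts, which is high for most of the set, so such shares depend on abundance as well as on the ratio. The median log2 ratio was 0.12 over the 34 genes and -0.01 over all genes above the minimum. Without regard to sign, the median log2 ratio was 0.23 over the 34 genes and 0.20 over all genes. With a minimum of 5 CPM these values were 0.23 and 0.18, so the set did not differ less than a typical gene. Summed over the set, the counts were 0.535% of the compressed and 0.524% of the control library, a ratio of 1.02 (1.01 to 1.03).

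**Figure D1:**
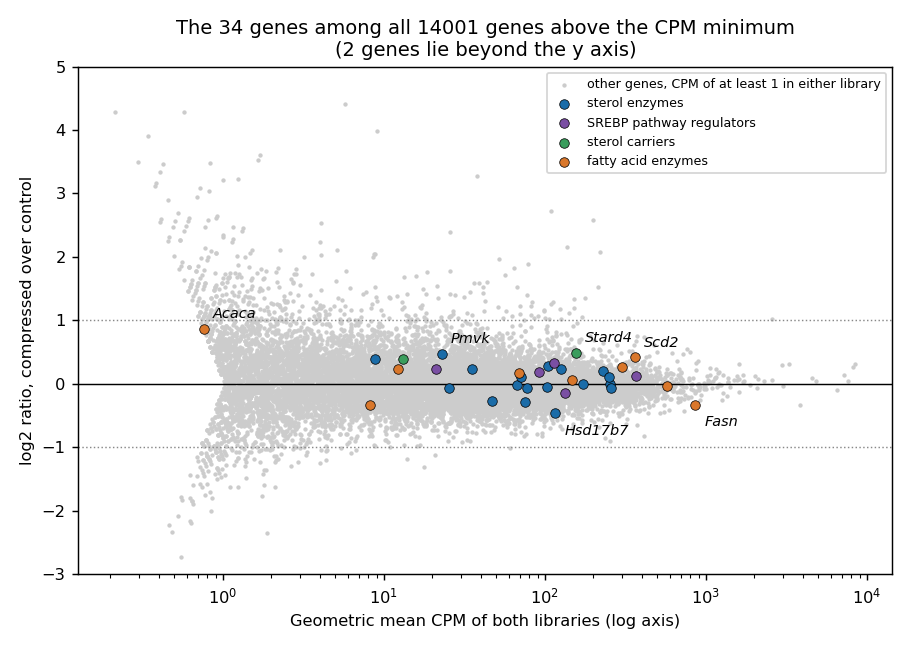
Log2 ratio of the compressed over the control library (y axis) against the geometric mean CPM of both libraries (logarithmic x axis) for the 14001 genes above the CPM minimum, with the 34 genes coloured by role, and 2 other genes beyond the y axis. The 34 genes lie between the dotted 2-fold lines, and Acaca, at the left edge, is the only one near the CPM minimum.

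CCAAT boxes were frequent in the promoters of the set, among genes with ratios above and below 1. RefSeq promoter windows on GRCm38.p6, from 250 bases before to 50 bases after an annotated start, were held for 27 of the 34 genes in 35 windows; Fads1, Fdft1, Fdps, Scd1, Scd2, Sqle and Stard4 had none. A CCAAT box, searched as CCAAT on both strands, occurred in 22 of the 35 windows (62.9%), against 37.4% of all 32851 windows and 38.4% of the windows of genes above the CPM minimum. A strict sterol regulatory element, TCACNCCAC on both strands, was found in 1 window, that of Hmgcs1 (2.86%, against 1.24% of all windows). By gene, 11 of 12 genes with an interval above 1 had a CCAAT box, 6 of 8 with an interval below 1 and 4 of 7 whose interval included 1. A gene with more than 1 window has more chances of a match. Dhcr7, Insig2, Pmvk, Srebf1 and Scap had more than 1, and all but Scap had an interval above 1. The counts by gene are therefore not comparable between these groups, and no such count was taken over all genes. The GC box GGGCGG was in 77.1% of the set's windows, against 63.4% of the windows of genes above the minimum. The core ACGTG bound by hypoxia-inducible factors was in 25.7%, against 25.6%. The E box CACGTG, which contains that core, was in 20.0%, against 10.0%. That share is only 7 windows of 6 genes. Both windows of Scap are among them and overlap, so its E box may be counted in each. A match of letters is a description of the sequence and not a binding site.

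The 250 bases before the start of 5 genes are shown 5′ to 3′ along each gene's strand, to set windows of genes with a higher, a similar and a lower count in compressed cells side by side. Capitals mark the sterol regulatory element and CCAAT boxes, which read ATTGG on the opposite strand. Hmgcs1 (chr13:119690101-119690350, plus strand) had its element 137 to 129 bases before the start and 3 CCAAT boxes around it. Insig1 (chr5:28071162-28071411, plus strand) had 1 CCAAT box, 216 to 212 bases before the start. Nsdhl (chrX:72918271-72918520, plus strand), whose ratio interval included 1, had 2, and Ebp (chrX:8193513-8193762, minus strand), with a ratio below 1, also had 2. Elovl6 (chr3:129532136-129532385, plus strand), with a ratio below 1, had none in this window. The 5 genes are examples and do not stand for their groups. Among genes with an interval below 1 that are not shown, the windows of 300 bases differed widely. Mvk had 5 CCAAT boxes, Fasn and Hsd17b7 had 3 each, Acly and Cyp51 had 1 each and Scap had none.
Hmgcs1: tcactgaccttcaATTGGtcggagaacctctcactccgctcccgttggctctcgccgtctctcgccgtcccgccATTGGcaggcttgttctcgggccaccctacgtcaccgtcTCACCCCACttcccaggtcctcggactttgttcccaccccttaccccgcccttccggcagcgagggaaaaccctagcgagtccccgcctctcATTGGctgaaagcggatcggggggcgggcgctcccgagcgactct
Insig1: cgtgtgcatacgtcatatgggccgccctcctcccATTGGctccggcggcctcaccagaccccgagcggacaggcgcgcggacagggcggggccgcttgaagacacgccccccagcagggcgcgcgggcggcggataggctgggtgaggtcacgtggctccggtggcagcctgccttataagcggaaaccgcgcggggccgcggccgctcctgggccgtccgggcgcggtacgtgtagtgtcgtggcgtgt
Nsdhl: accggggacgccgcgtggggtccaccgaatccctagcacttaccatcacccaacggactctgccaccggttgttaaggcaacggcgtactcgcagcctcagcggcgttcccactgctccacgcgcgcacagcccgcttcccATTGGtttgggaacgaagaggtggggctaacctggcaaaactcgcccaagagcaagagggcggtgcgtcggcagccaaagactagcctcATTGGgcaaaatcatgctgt
Ebp: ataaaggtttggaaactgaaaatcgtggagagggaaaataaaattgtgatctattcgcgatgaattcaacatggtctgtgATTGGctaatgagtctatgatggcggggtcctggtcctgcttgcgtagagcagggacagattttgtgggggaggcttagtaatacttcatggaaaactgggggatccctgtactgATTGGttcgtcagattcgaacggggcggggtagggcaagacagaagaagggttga
Elovl6: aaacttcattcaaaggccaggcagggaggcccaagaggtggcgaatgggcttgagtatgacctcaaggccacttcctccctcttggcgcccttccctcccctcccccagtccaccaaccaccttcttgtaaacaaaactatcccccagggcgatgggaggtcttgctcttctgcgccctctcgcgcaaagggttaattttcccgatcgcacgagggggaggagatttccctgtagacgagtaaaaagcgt

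In the sterol branch, the early steps up to farnesyl diphosphate were mixed, with Pmvk and Mvk at opposite ends. Pmvk, which adds the second phosphate to mevalonate, had 653 counts in compressed and 487 in control cells, a ratio of 1.38 (1.23 to 1.56). Mvk, the kinase just before it, had 1044 counts in compressed and 1301 in control cells, a ratio of 0.828 (0.763 to 0.899). These neighbouring steps therefore differed in opposite directions, each beyond its counting error. Hmgcs1, the synthase that makes HMG-CoA, had 6011 counts in compressed and 5366 in control cells, a ratio of 1.16 (1.11 to 1.20). Mvd, which decarboxylates mevalonate diphosphate to give isopentenyl diphosphate, had 931 counts in compressed and 818 in control cells, a ratio of 1.17 (1.07 to 1.29), and an annotated noncoding gene overlaps it.

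The other 3 genes of these early steps were alike in both libraries within counting error. Fdps, the synthase of farnesyl diphosphate, had 6155 counts in compressed and 6356 in control cells, and its interval of 0.965 to 1.04 was the narrowest of the 3. Idi1, the isomerase of isopentenyl diphosphate, had 603 counts in compressed and 648 in control cells, a ratio of 0.960 (0.858 to 1.08). Acat2, a cytosolic thiolase that joins a pair of acetyl-CoA molecules, had 1619 counts in compressed and 1696 in control cells, a ratio of 0.985 (0.920 to 1.06). Acat2 has a closely related neighbour, Acat3, so its counts depend on how shared reads were assigned. Summed over the 7 genes, these steps had 17016 counts in compressed and 16672 in control cells, a ratio of 1.05 (1.03 to 1.08).

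The 3 steps from farnesyl diphosphate to lanosterol were all somewhat higher in compressed cells. Fdft1, squalene synthase and the first enzyme committed to sterols, had 2782 counts in compressed and 2358 in control cells, a ratio of 1.22 (1.15 to 1.29). Its annotated span shares 774 bases with Ctsb, which had a ratio of 1.10 (1.08 to 1.13), so some of its reads may be shared. Lss, which folds epoxidized squalene into lanosterol, had 3301 counts in compressed and 2899 in control cells, a ratio of 1.17 (1.12 to 1.24). Sqle, the squalene epoxidase, which uses molecular oxygen, had 6318 counts in compressed and 6051 in control cells, a ratio of 1.08 (1.04 to 1.12). All 3 intervals lay above 1, as did those of 26.3% of all genes above the CPM minimum, and the median log2 ratio of the 3 was 0.23.

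After lanosterol, 5 of the 8 enzymes had ratios below 1, 3 of them with intervals below 1. Over all genes above the CPM minimum, 7190 of 14001 had ratios below 1 and 28.6% had intervals below 1, so these counts lay near the background. Hsd17b7, the ketoreductase that acts in removal of the methyl groups, lies on chromosome 1 at 169949535 to 169969242 and had the lowest ratio of the 34 genes. It had 2397 counts in compressed and 3399 in control cells, which is 98.7 CPM against 136 CPM and a ratio of 0.728 (0.690 to 0.767). Of all genes above the CPM minimum, 7.55% had a ratio as low or lower. Ebp, the sterol isomerase that follows, had 1642 counts in compressed and 2072 in control cells, a ratio of 0.818 (0.766 to 0.873). Cyp51, the oxygen-dependent demethylase that acts on lanosterol, had 6094 counts in compressed and 6579 in control cells, a ratio of 0.956 (0.923 to 0.990).

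The remaining late enzymes were close to 1, apart from Tm7sf2. Nsdhl, the dehydrogenase that acts just before Hsd17b7, had 1836 counts in compressed and 1976 in control cells, a ratio of 0.959 (0.899 to 1.02). Sc4mol, the methylsterol oxidase of the same complex, had 4213 counts in compressed and 4338 in control cells, a ratio of 1.00 (0.960 to 1.05). Sc5d, a desaturase of the sterol ring, had 2439 counts in compressed and 2614 in control cells, a ratio of 0.963 (0.911 to 1.02). The lower value of Hsd17b7 was thus not shared by Nsdhl and Sc4mol, which work with it in removing methyl groups. Hsd17b7 made up 56.6% (55.1% to 58.1%) of its joint counts with Nsdhl in compressed and 63.2% (61.9% to 64.5%) in control cells, which restates the ratios of both genes. Dhcr7, the reductase of the last step of one route to cholesterol, had 1789 counts in compressed and 1714 in control cells, a ratio of 1.08 (1.01 to 1.15). Tm7sf2, a sterol reductase, had 243 counts in compressed and 192 in control cells, a ratio of 1.31 (1.08 to 1.59), one of the wider intervals of the set. Summed over the 8 enzymes after lanosterol, the counts were 20653 in compressed and 22884 in control cells, a ratio of 0.931 (0.914 to 0.949), whereas the 3 enzymes leading to lanosterol summed to 12401 counts in compressed and 11308 in control cells, a ratio of 1.13 (1.10 to 1.16). These stages were set apart with the values known. Hsd17b7 alone made up a large part of the lower count after lanosterol. Without Hsd17b7 the sum of all sterol enzymes had a ratio of 1.04 (1.02 to 1.05), against 1.02 with it. Of the 3 enzymes leading to lanosterol, Fdft1 and Lss overlap other annotated genes, so their counts are uncertain.

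**Figure D2:**
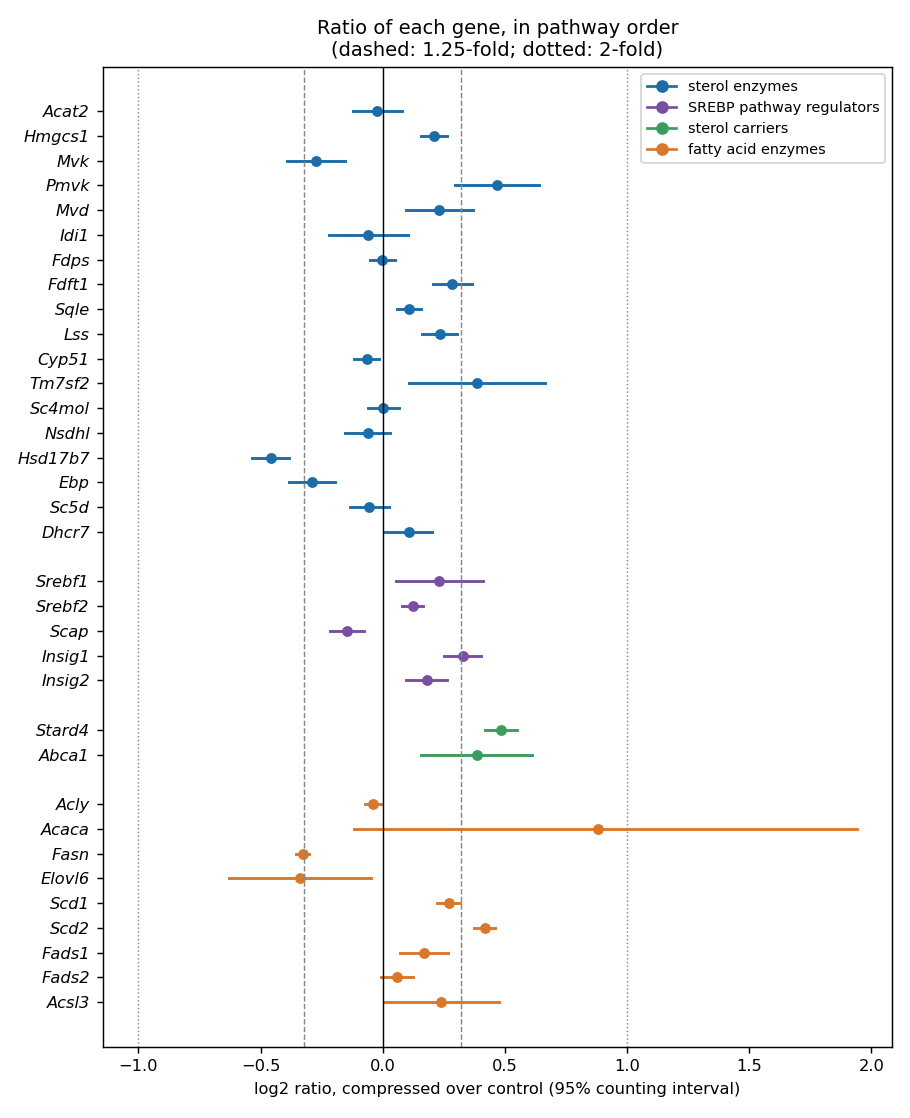
Log2 ratio of the compressed over the control library (x axis) for each of the 34 genes in pathway order from top to bottom, coloured by role, with bars for the 95% counting interval. Pmvk and Mvk lie on opposite sides of 0, Fdft1, Sqle and Lss lie above it, Hsd17b7 and Ebp lie below it, and the bar of Acaca is the widest.

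In the fatty acid branch, Fasn was lower and the desaturases Scd1 and Scd2 were higher in compressed cells. Fasn, the multienzyme synthase of palmitate on chromosome 11 at 120805958 to 120825166, had 18622 counts in compressed and 24115 in control cells. That is 767 CPM against 962 CPM and a ratio of 0.797 (0.782 to 0.812), the highest count and the narrowest interval of a lower gene in the set. With upper-quartile and loess scaling its log2 ratio, -0.317 and -0.316 in place of -0.328, no longer reached the 20% limit of -0.322. Scd2, a stearoyl-CoA desaturase that puts the double bond into saturated chains, on chromosome 19 at 44293676 to 44306864, had 10154 counts in compressed and 7849 in control cells, a ratio of 1.33 (1.30 to 1.38). Scd1, its neighbouring paralog, had 8068 counts in compressed and 6904 in control cells, a ratio of 1.21 (1.17 to 1.245). Each of the 3 differences exceeded counting error, and the counts of both Scd genes are uncertain because they are close paralogs. Fasn held 64.7% (64.2% to 65.3%) of its joint counts with Scd2 in compressed and 75.4% (74.97% to 75.9%) in control cells. These shares do not depend on any single scaling factor per library. They pair a lower with a higher gene and restate the ratios of both, so they are no separate result.

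Counts of the Scd genes depend on how reads were assigned. The microRNA row Mir5114, whose hairpin of 61 bases lies within Scd2, had 1523 counts in compressed and 1216 in control cells. Its ratio of 1.29 (1.20 to 1.40) overlapped that of Scd2. Whether these are reads of the Scd2 transcript was not tested. Scd2 made up 55.7% (55.0% to 56.5%) of the joint Scd1 and Scd2 counts in compressed and 53.2% (52.4% to 54.0%) in control cells.

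Acly and Elovl6 had ratios below 1. Acly, which splits citrate to give cytosolic acetyl-CoA for both branches, had 13785 counts in compressed and 14628 in control cells, a ratio of 0.972 (0.95 to 0.995). Elovl6, which elongates palmitate, had 177 counts in compressed and 231 in control cells, a ratio of 0.791 (0.646 to 0.966). The interval of Elovl6 came close to 1, and that of Acly came closer. Acaca, the carboxylase that makes malonyl-CoA, had only 25 counts in compressed and 14 in control cells, a ratio of 1.84 whose interval ran between 0.922 and 3.84, so a difference was not detectable at this depth. It had the fewest counts of the 34 genes. Its annotated span contains 19116 bases that overlap Gm11437, a predicted gene with 0 counts in both libraries, and why Acaca has so few counts was not tested. Acacb, the mitochondrial-membrane carboxylase, had 1040 counts in compressed and 720 in control cells, a ratio of 1.49 (1.35 to 1.64). Some other genes that supply precursors, named after their values were seen, were higher, whereas Acly was not. Slc25a1, the mitochondrial citrate carrier, stood at 1.32 (1.251 to 1.40). Acss2, which makes acetyl-CoA from acetate, stood at 1.36 (1.15 to 1.61), and Me1, the cytosolic malic enzyme that yields NADPH, at 1.23 (1.20 to 1.27). Acacb and these genes come from a list of further fatty acid and glycerolipid genes. Of its 28 genes above the CPM minimum, 14 had ratios above 1 and 14 below. Intervals lay above 1 for 32.1% of the 28, against 26.3% of all genes.

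The polyunsaturated fatty acid enzymes and the acyl-CoA synthetase were similar or slightly higher. Fads1, a front-end desaturase of polyunsaturated chains, had 1768 counts in compressed and 1623 in control cells, a ratio of 1.12 (1.05 to 1.20). Fads2, the desaturase that starts that route, had 3653 counts in compressed and 3620 in control cells, a ratio of 1.04 (0.994 to 1.09). The interval of Fads1 lay above 1 and that of Fads2 included it. Acsl3, an acyl-CoA synthetase of the endoplasmic reticulum and lipid droplets, had 324 counts in compressed and 283 in control cells, a ratio of 1.18 (1.00 to 1.39). The span of Acsl3 shares 9777 bases with Utp14b, which had 1495 counts in compressed and 1836 in control cells, so its own counts are uncertain.

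**Figure D3:**
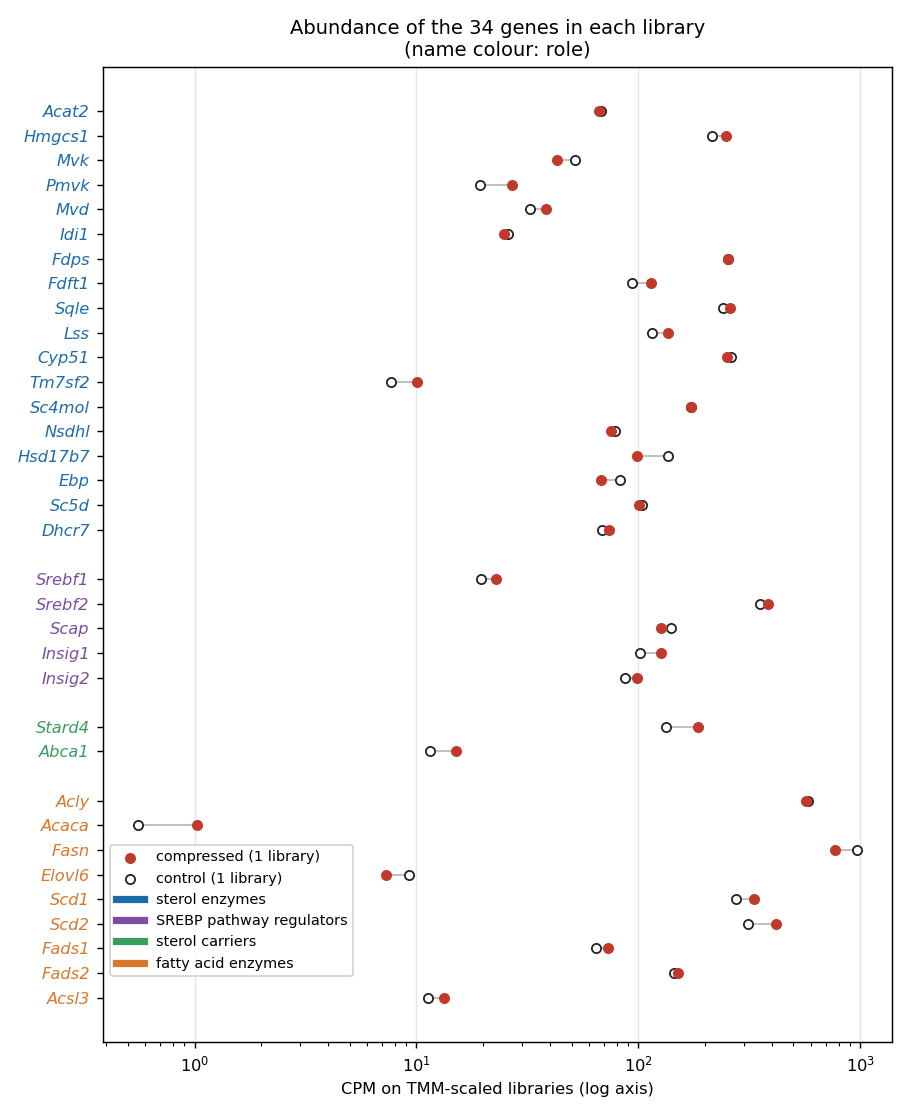
CPM of each of the 34 genes (logarithmic x axis) in the compressed (filled red) and the control library (open), with gene names coloured by role. Fasn and Hsd17b7 have the filled point to the left of the open one, and Stard4, Scd2 and Pmvk have it to the right; CPM is not divided by gene length, so distances between genes are not differences in transcript number.

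Set against each other, the branches were close. The median log2 ratio was 0.00 over the 18 sterol enzymes and 0.17 over the 9 fatty acid enzymes, a difference of -0.17 for sterol minus fatty acid enzymes. Summed counts gave the opposite order. The sterol enzymes summed to 50070 counts in compressed and 50864 in control cells, a ratio of 1.02 (1.00 to 1.03), and the fatty acid enzymes to 56576 counts in compressed and 59267 in control cells, a ratio of 0.985 (0.974 to 0.997). Fasn alone held 32.9% of the fatty acid branch counts in compressed and 40.7% in control cells. Without Fasn the fatty acid sum had a ratio of 1.11 (1.10 to 1.13). The sterol share of both branches was 46.95% (46.65% to 47.25%) in compressed and 46.2% (45.9% to 46.5%) in control cells, and without Fasn it was 56.9% (56.6% to 57.2%) in compressed and 59.1% (58.8% to 59.5%) in control cells. The order of the branch sums therefore rests on this 1 gene. The medians rest in part on genes whose counts are uncertain: Acat2, Mvd, Fdps, Fdft1, Lss, Tm7sf2, Acly, Acaca, Elovl6, Scd1, Scd2, Fads1 and Acsl3, and outside the branches Srebf1, Srebf2 and Insig1, overlap another annotated gene or have a close paralog. Any overlap counted, however short: Elovl6 shares 3 bases and Tm7sf2 9 bases with another gene, while Acsl3 shares 9777 with Utp14b. The degree of doubt therefore differs between the 16 genes. With all 16 left out, the medians were -0.057 over 12 sterol enzymes and -0.13 over only 2 fatty acid enzymes, Fasn and Fads2. The sign of the difference then turned, to 0.078. The summed ratios without the 16 genes were 0.989 for the sterol and 0.829 for the fatty acid enzymes. That fatty acid sum holds only Fasn and Fads2 and is mostly Fasn, so it is no separate check on the order of the sums.

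**Figure D4:**
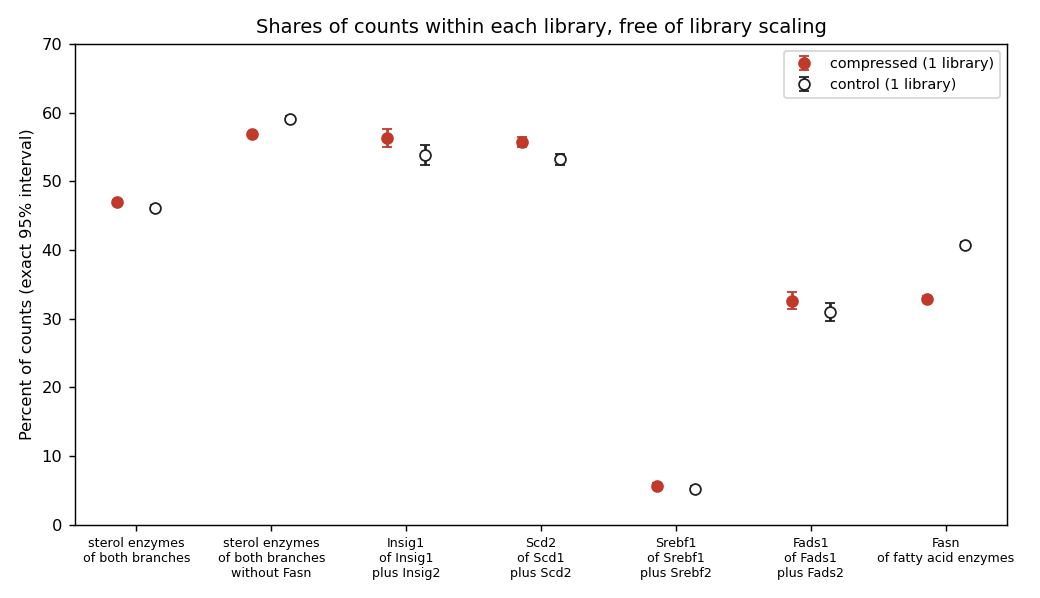
Share of counts in percent (y axis, from 0) of the first named gene or branch among the counts named under it, in the compressed library (filled red, left of each pair) and the control library (open, right), with exact 95% intervals. The share of Fasn among fatty acid enzymes is 32.9% in compressed and 40.7% in control cells, while the sterol share of both branches is 46.95% in compressed and 46.2% in control cells.

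Of the SREBP pathway regulators, 4 were slightly higher in compressed cells and Scap was slightly lower, each with an interval off 1. Over all genes above the CPM minimum, intervals lay wholly above 1 for 26.3% and wholly below 1 for 28.6%. Insig1, on chromosome 5 at 28071412 to 28078662, is itself an SREBP target and retains SCAP in the endoplasmic reticulum; it had 3084 counts in compressed and 2538 in control cells, a ratio of 1.254 (1.19 to 1.32). It fell short of the 25% limit, a log2 ratio of 0.32, with DESeq2 size factors, at 0.314. Insig2, its relative with the same retaining role, had 2391 counts in compressed and 2178 in control cells, a ratio of 1.13 (1.07 to 1.20). Both retention genes were thus higher, and Insig1 held 56.3% (55.0% to 57.7%) of their joint counts in compressed and 53.8% (52.4% to 55.3%) in control cells. The intervals of these shares overlapped slightly. Scap, the escort, had 3074 counts in compressed and 3509 in control cells, a ratio of 0.904 (0.861 to 0.949).

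Both SREBP genes had intervals above 1, as did 26.3% of all genes above the CPM minimum. Srebf2 had 9365 counts in compressed and 8878 in control cells, a ratio of 1.09 (1.06 to 1.12). Srebf1 had 556 counts in compressed and 489 in control cells, a ratio of 1.17 (1.04 to 1.33). Counts per gene do not separate the Srebf1 isoforms, and transcript counts say nothing of SREBP cleavage. Srebf1 was 5.60% (5.16% to 6.08%) of the joint Srebf counts in compressed and 5.22% (4.78% to 5.69%) in control cells, so their proportion was alike within counting error.

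Both sterol carriers were higher. Stard4, a soluble carrier that moves cholesterol between membranes and is itself an SREBP target, had the highest ratio of the genes with more than 100 counts in the set. It had 4502 counts in compressed and 3324 in control cells, which is 185 CPM against 133 CPM and a ratio of 1.40 (1.34 to 1.46). Of all genes above the CPM minimum, 11.0% had a ratio as high or higher. Abca1, the cholesterol exporter induced through liver X receptors, had 367 counts in compressed and 290 in control cells, a ratio of 1.31 (1.12 to 1.53). Both intervals lay wholly above 1, as did those of 26.3% of all genes above the minimum, and the median log2 ratio of the pair was 0.43.

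Some other genes of lipid metabolism differed by more than 2-fold. The median absolute log2 ratio was 0.23 over the 34 genes, against 0.20 over all genes above the CPM minimum. It was 0.16 over both the other sterol and the other fatty acid and glycerolipid genes, 0.17 over oxidation genes and 0.45 over lipid droplet genes. Of 25 further sterol pathway genes, 22 lay above the CPM minimum, with a median log2 ratio of -0.03. Of these 22, 2 were at least 25% higher and 1 at least 20% lower, against 14.3% and 11.4% of all genes above the minimum. None of the 22 differed 2-fold, against 3.06% higher and 0.929% lower of all genes. The highest were Soat2, a cholesterol esterifying enzyme, at 1.81 (1.33 to 2.49) with 116 counts in compressed and 66 in control cells, and Stard5, another sterol carrier, at 1.59 (1.44 to 1.77). The lowest was Pdss1, which makes the side chain of coenzyme Q, at 0.564 (0.458 to 0.692).

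Among 34 further fatty acid and glycerolipid genes, 28 lay above the minimum, with a median log2 ratio of 0.00. Of these 28, 5 were at least 25% higher and 2 at least 20% lower, against 14.3% and 11.4% of all genes above the minimum. The 5 were Lpin1, Dgat2 and, already named above, Acacb, Acss2 and Slc25a1. The only 2 past 2-fold were higher, against 3.06% of all genes, and act in making triglyceride from fatty acids. Lpin1, a phosphatidate phosphatase, had 2468 counts in compressed and 776 in control cells, a ratio of 3.28 (3.03 to 3.56). Dgat2, which adds the third acyl chain, had 422 counts in compressed and 169 in control cells, a ratio of 2.58 (2.15 to 3.10). Their listed relatives differed less: Lpin2 stood at 1.105 (1.055 to 1.157), Lpin3 at 0.795 (0.579 to 1.09) and Dgat1 at 1.01 (0.911 to 1.12). The acyltransferases Gpam, Agpat1 and Agpat2 of the same route stood at 0.997, 0.969 and 1.06, with intervals that included 1. The route as a whole was thus not higher. At the lower end were Elovl4 at 0.664 (0.602 to 0.732) and Hacd3, a dehydratase of chain elongation, at 0.722 (0.677 to 0.769). Elovl5, an elongase of polyunsaturated chains, stood at 1.02 (0.926 to 1.13).

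Lipid droplet genes differed in both directions. Of 13 listed, 8 lay above the minimum, with a median log2 ratio of -0.09. Of these 8, 3 were at least 25% higher and 3 at least 20% lower, against 14.3% and 11.4% of all genes above the minimum. Hilpda, an inhibitor of the lipase encoded by Pnpla2 and a known hypoxia-inducible gene, had 712 counts in compressed and 261 in control cells, a ratio of 2.81 (2.44 to 3.26). Pnpla2 itself, the adipose triglyceride lipase, stood at 1.47 (1.33 to 1.62), while its coactivator Abhd5 stood at 0.720 (0.653 to 0.795) and Fitm2, a droplet-forming gene, at 0.651 (0.564 to 0.752). Plin2, the main droplet coat protein of many cells, had 2782 counts in compressed and 3512 in control cells, a ratio of 0.817 (0.778 to 0.859). Plin2 did not reach the 20% limit, and other coat genes, named after their values were seen, went both ways, with Plin3 at 1.34 (1.26 to 1.43) and Plin4 at 0.763 (0.634 to 0.916).

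Liver X receptor genes were called about as often as all genes. Of 10 receptor genes and targets, 7 lay above the minimum and 1 was at least 25% higher, against 14.3% of all genes, and this was Nr1h2, which encodes the beta receptor, at 1.67 (1.52 to 1.83). Abcg4 followed at 1.42 (0.913 to 2.23) and Lpcat3, a phospholipid remodelling enzyme, stood at 0.878 (0.823 to 0.938). Abcg1, a partner of ABCA1 in cholesterol export, had 4 counts in compressed and 7 in control cells, too few to compare. Of 22 oxidation genes, 21 lay above the minimum, 2 were at least 25% higher and 1 at least 20% lower, against 14.3% and 11.4% of all genes, with a median log2 ratio of 0.03. Ppard, a nuclear receptor that induces oxidation genes, stood at 1.69 (1.23 to 2.35) and the neuronal carnitine palmitoyltransferase Cpt1c at 1.29 (1.19 to 1.41). The coactivator Ppargc1b stood at 0.678 (0.609 to 0.755), Cpt1b at 0.803 (0.523 to 1.22) and Cpt1a, the gate of fatty acid entry into mitochondria, at 0.840 (0.801 to 0.880).

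**Figure D5:**
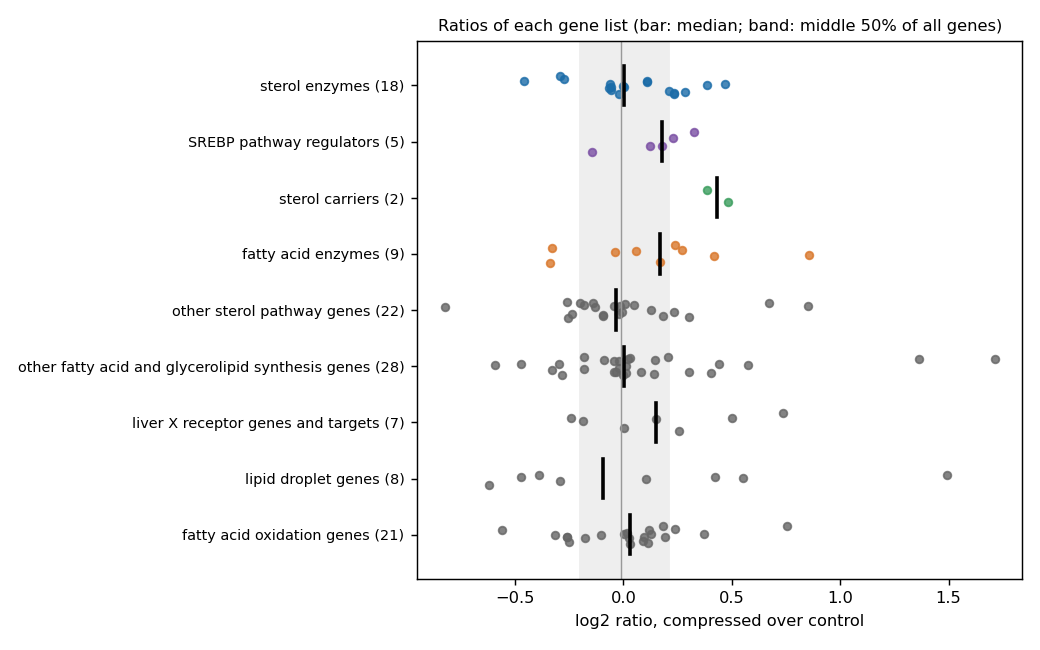
Log2 ratio of the compressed over the control library (x axis) of every gene above the CPM minimum in 9 lists of lipid genes, with the number of genes in brackets, a black bar at each median and a grey band over the middle 50% of all genes. The medians of the sterol and fatty acid enzymes, at 0.00 and 0.17, lie within the band, and the rightmost points are Lpin1, Hilpda and Dgat2.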

How the data were processed

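RNA sequencing counts of 1 compressed and 1 control OCCM-30 library were used. Per the labels' protocols, RNA was taken with Trizol and libraries followed Illumina protocols. The deposited table holds whole-number read counts per gene with no normalization. Alignment with HISAT2 and the build GRCm38 are listed, per the submitters' processing notes. How reads were counted, by which tool, on which strand and with what treatment of multiply aligned reads, is not stated in those notes or the labels. Counts of overlapping genes and close paralogs are therefore uncertain.

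CPM and ratios were computed from the deposited counts on TMM-scaled library sizes (edgeR 4.0.16, R 4.3.3), with log2 ratios at a prior count of 0.5 and exact 95% Clopper-Pearson intervals. Sequenced reads are not independent molecules, so intervals and floors cover counting error only. A gene was counted at a fold when it had at least 1 CPM in either library, a log2 ratio past that fold and an interval off 1. The smaller fold was 25% higher or 20% lower. No p-value was computed, since 1 library per group leaves no residual degrees of freedom. The ratio and interval steps were run on simulated data with counting error only, which is what the interval assumes. That run checks the computation and cannot speak to the spread between cultures. The members and lists were chosen with earlier results of these data known. All members are named; of other lists, the 2 highest and 2 lowest ratios and a few fixed genes, some of which are not reported here. Positions and older symbols come from RefSeq on GRCm38.p6. Alternatives were other scalings (total count, DESeq2 1.42.0 size factors, upper quartile, loess), CPM minimums, prior counts, wider intervals and omission of doubtful genes.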

Additional observations from a re-analysis of the deposited data

How the results depend on the processing

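Total-count, DESeq2, upper-quartile and loess scaling left all 34 log2 ratios within their own counting intervals, and changed the sign only of Sc4mol, Fdps and Acat2, whose intervals include a ratio of 1. DESeq2 size factors left 5 of the 6 higher calls (without Insig1), and upper-quartile and loess scaling left 2 of the 3 lower calls (without Fasn). No paired analysis was possible because each group has 1 library. Setting aside the 16 genes that overlap another annotated gene, by however few bases, or have a close paralog left 12 sterol and 2 fatty acid enzymes. The genes at least 25% higher then numbered 3 in place of 6 (Pmvk, Stard4 and Abca1). The median log2 ratio became -0.057 for the sterol and -0.13 for the fatty acid enzymes, and their difference 0.078, in place of -0.17. The ratios of summed counts became 0.989 for the sterol and 0.829 for the fatty acid enzymes. With an interval widened for a coefficient of variation of 0.1 between cultures, 3 genes were higher (Pmvk, Stard4 and Scd2) and 1 lower (Hsd17b7, in place of 3). Leaving out Fasn, chosen after seeing the data, gave a fatty acid sum ratio of 1.11. Depth limits Acaca, and the single library per group limits every ratio.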
